A study of Homo sapiens with 2 samples.

Results

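Rab GTPases form the largest branch of the Ras superfamily and act as switches that mark the membranes of the secretory and endocytic pathways. Each Rab alternates between a GDP-bound and a GTP-bound form. Guanine nucleotide exchange factors load GTP, and GTPase-activating proteins speed its hydrolysis. A geranylgeranyl lipid anchors the protein in the membrane, a GDP dissociation inhibitor lifts the GDP form off it, and the GTP form recruits effectors such as tethers, motor adaptors and sorting proteins.

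The 31 genes described here are those whose symbol in the deposited table is RAB followed by a number and, at most, a letter and 1 further digit. They are 31 of the 7712 genes that the table names, and they carry 654 of its 233546 clusters. The rule used names only and no measured value. By gene ID, all 31 were found in the RefSeq gene table of assembly GRCh38.p14, 30 of them under the same symbol, and RAB7L1 is now called RAB29. RefSeq holds 63 protein-coding genes whose current symbols fit the rule. For the other 32, among them RAB1B, RAB3A, RAB11B and RAB13, no cluster in the table carried the symbol, and they were not analysed here.

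The clusters come from HITS-CLIP of RBM47, an RNA-binding protein. In this assay living cells are irradiated with ultraviolet light, which joins proteins to RNA in direct contact, and the RNA fragments recovered with the precipitated protein are sequenced as tags. The cells were MDA231-BrM2a, a non-clonal brain metastatic derivative of the breast cancer line MDA-MB-231, which carried a doxycycline-inducible transgene for Flag-tagged wild-type RBM47 and had been kept in doxycycline (1 ng/ml, 3 days) when they were irradiated. There is 1 group with 2 replicates, and every value below belongs to cells that express the transgene. No library of cells without Flag-RBM47 and no RNA level was analysed here, so a transcript that is bound more often and a transcript that is more abundant cannot be told apart.

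A cluster is a stretch of the genome, in build hg18, in which tags of both replicates overlap, and each listed cluster holds at least 1 tag of each replicate and 5 tags in all. Replicate 1 supplied 999047 tags to the table and replicate 2 supplied 3489697, 3.49 times as many, so that the median cluster holds 2 tags of the first and 6 of the second. Unless stated otherwise, the values below use clusters of at least 10 tags and the total that the authors give for each cluster. In 65 of the 654 Rab clusters the tags of the replicates add up to more than that total, by 123 tags altogether, so the replicate values can exceed the total by a few tags. Transcripts of genes that mark mesenchymal-like MDA-MB-231 cells were well covered, with 3327 tags on VIM, 8404 on CD44, 3232 on AXL and 2335 on CAV1. ESR1, PGR, CDH1 and KRT18 had no cluster, and EPCAM had 11 tags. These are counts of bound RNA and not of expression.

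Every one of the 31 genes has tags, since the table lists only genes with clusters, and most of the tags lay in 3′UTRs. At least 1 cluster of 10 tags or more was present in 29 of the 31 Rab genes, or 93.5%, beside 72.6% of all genes in the table. More than 100 tags were present in 21 of them, or 67.7%, beside 39.9% of all genes. The median was 253 tags over the Rab genes and 49 tags over all genes. RAB12, with 101 tags, was the gene just inside the limit of 100 tags, and RAB9B, with 86, the one just outside it. These shares and medians describe the table and were not tested.

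The Rab genes together held 12214 tags in 318 clusters. This was 4.19 of every 1000 tags in genes in replicate 1 and 4.22 in replicate 2, or 4.2 ± 0.0204 (SD, n = 2). The tags were unevenly spread, and the 4 genes with the most tags, RAB8B, RAB5A, RAB10 and RAB22A, held 4962 of them, or 40.6%. A longer transcript can hold more clusters, and per kb of cluster the median was 197.7 tags over the Rab genes and 164.1 over all genes.

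**Figure D1:**
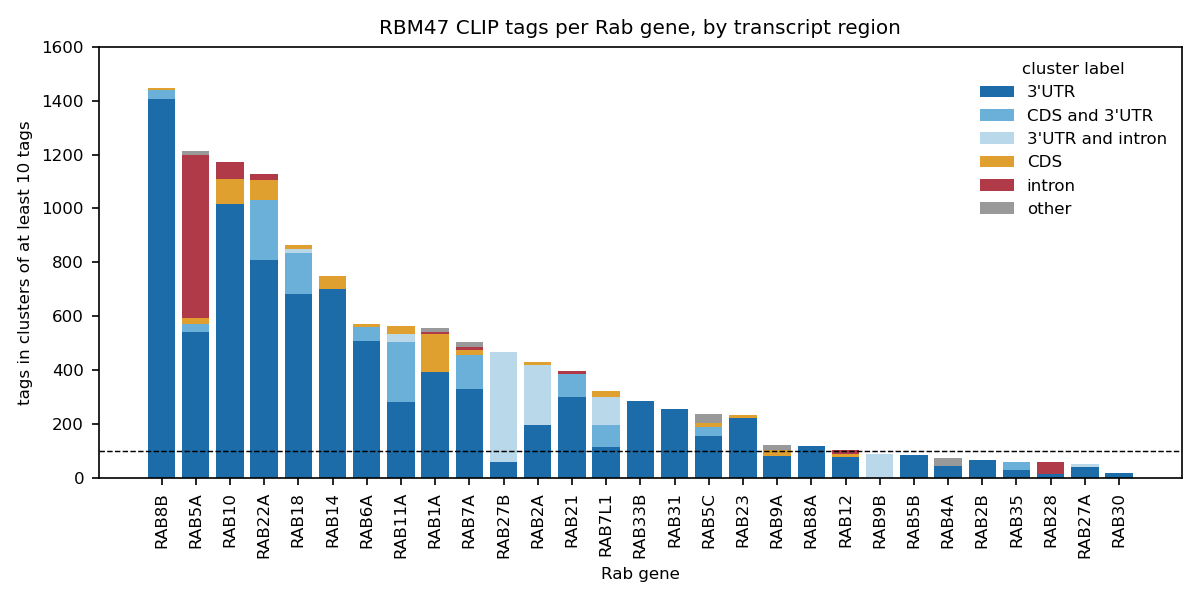
Bars give the tags in clusters of at least 10 tags (y axis, sum over both replicates) for the 29 Rab genes that have such a cluster (x axis), coloured by the region label of the clusters, and the dashed line marks 100 tags. RAB8B stands highest with 1449 tags, nearly all of them in 3′UTR clusters, and RAB5A is the single gene among the highest bars with a large intron part.

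The genes of the RAB8 branch, which serve transport from the trans-Golgi network and recycling endosomes to the plasma membrane and the primary cilium, led the list. All 3 members in the table, RAB8A, RAB8B and RAB10, held more than 100 tags, with a median of 1173. RAB8B had 278 tags in replicate 1 and 1177 in replicate 2, which is 27.8 and 33.7 per 100000 tags of the replicate in all listed clusters, or 30.8 ± 4.17 (SD, n = 2). Its total of 1449 tags ranked 418th among all genes. Replicate 1 supplied 22.3% of the tags in all listed clusters but 21.1% in those of at least 10 tags. Values per 100000 are therefore slightly low in replicate 1 beside replicate 2, and each SD includes this offset. RAB10, which also brings the glucose transporter GLUT4 to the surface of fat cells, had 259 and 945 tags, or 26.5 ± 0.817 per 100000 (SD, n = 2). RAB8A, which overlaps HSH2D on the same strand in GENCODE, had 28 and 90 tags, or 2.69 ± 0.158 per 100000 (SD, n = 2). RAB8B and RAB10 thus lay close together and RAB8A far below both of them in either library.

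Genes that act at early endosomes had a median of 324 tags, below the 430 of the endoplasmic reticulum and Golgi class described after them. RAB5A, which drives the fusion of early endosomes, had 260 and 958 tags in replicates 1 and 2, or 26.7 ± 1.01 per 100000 (SD, n = 2). RAB22A, a relative of RAB5A that serves endosomal sorting and recycling, had 241 and 887 tags, or 24.8 ± 0.915. Both libraries placed RAB5A, RAB10 and RAB22A within a narrow range, and the spreads of RAB5A and RAB10 overlap, so that no order between these 2 genes can be read. RAB21, which traffics integrins through early endosomes, had 94 and 302 tags. RAB31, a further relative of RAB5A that acts between the trans-Golgi network and endosomes, had 43 and 210 tags, or 5.16 ± 1.21 per 100000 (SD, n = 2). RAB5C had 45 and 192 tags. Of the 6 genes of this class in the table, 5 held more than 100 tags, and RAB5B, with 82, was the exception.

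The class that serves the endoplasmic reticulum and the Golgi apparatus had 7 genes in the table, 5 of them with more than 100 tags, and a median of 430. RAB18, which is found on lipid droplets and the endoplasmic reticulum, had 163 and 706 tags in replicates 1 and 2, or 18.3 ± 2.77 per 100000 (SD, n = 2). RAB6A, which directs retrograde transport from endosomes through the Golgi apparatus, had 103 and 471 tags, or 11.9 ± 2.25 (SD, n = 2). RAB1A, needed for transport from the endoplasmic reticulum to the Golgi apparatus, had 114 and 442. The values per 100000 tags of RAB6A and RAB1A did not differ beyond their spread, and RAB18 lay above both in each library. RAB2A, which works between the endoplasmic reticulum and the Golgi apparatus, had 84 and 346 tags. RAB33B, a Golgi Rab that binds the autophagy protein ATG16L1, had 74 and 223.

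Among genes of recycling endosomes, RAB14 had 150 and 600 tags in replicates 1 and 2, or 16.1 ± 1.54 per 100000 (SD, n = 2). RAB14 serves transport between the Golgi apparatus and endosomes. Its 387.8 tags per kb of cluster were the highest Rab value on that scale, close to 376.1 in RAB18 and 375.4 in RAB10. Per kb of annotated 3′UTR, a scale given below, RAB14 was not the highest. RAB11A, the main Rab of the recycling endosome, had 121 and 445 tags, or 12.4 ± 0.453 per 100000. RAB4A, which acts in rapid recycling, and RAB35, which recycles receptors to the plasma membrane, lay under 100 tags, with 72 and 58.

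Late endosomal and lysosomal Rabs had a median of 111 tags over 6 genes, 4 of them with more than 100. RAB7A, which carries cargo from late endosomes to lysosomes, had 125 and 386 tags in replicates 1 and 2, or 11.8 ± 1.03 per 100000 (SD, n = 2). RAB7L1, a substrate of the kinase LRRK2, had 75 and 247. RAB9A, which returns mannose 6-phosphate receptors from late endosomes to the trans-Golgi network, had 23 and 98, and RAB12, linked to the delivery of transferrin receptor to lysosomes, had 21 and 80. RAB38, which helps to build melanosomes, had no cluster of 10 tags and 18 tags in all its clusters.

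Regulated secretion was represented by RAB27A and RAB27B, which dock secretory granules and exosome-bearing endosomes at the plasma membrane. RAB27B had 98 and 374 tags, or 10.3 ± 0.642 per 100000 (SD, n = 2), and RAB27A had 10 and 40. RAB23, a regulator of Hedgehog signalling that belongs to none of these classes, had 50 and 185 tags. The 8 genes with a cluster of 10 tags but no more than 100 tags ranged from 17 tags in RAB30, a Golgi Rab, to 86 in RAB9B. Beside RAB38, RAB40A, whose protein carries a SOCS box that binds ubiquitin ligase subunits, had no such cluster, and it had 10 tags in all its clusters.

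Each listed cluster holds tags of both replicates, so sites seen in a single library are absent from this comparison. Within the listed clusters the libraries gave nearly the same profile of Rab genes. Replicate 1 contributed 3150 tags and replicate 2 contributed 11358 over all Rab clusters, so that 21.7% of the tags came from replicate 1, beside 22% over all genes and 22.3% over the whole table. A two-sided exact binomial test against that last share, with Benjamini-Hochberg adjustment over all 7712 genes, called none of the 31 Rab genes at an adjusted p under 0.05. It called 1.7% of all genes, and 0.765% were called with a higher share in replicate 1. Among Rab genes 2 had an unadjusted p under 0.05, beside 10.1% of all genes, and the beta-binomial test, which allows extra spread between libraries, gave none. These were RAB8B, with 19.2% of its tags from replicate 1 (95% Wilson interval 17.3 to 21.3, exact binomial p = 0.005, adjusted p = 0.154), and RAB18 (exact binomial p = 0.0324, adjusted p = 0.405). Per cluster, the same test called 0 of 654 Rab clusters, beside 0.0111% of all clusters. Both shares over the table are so low that the absence of calls does not set the Rab genes or clusters apart. An unadjusted p under 0.05 was found in 10 of the 654, beside 3.04% of all clusters. This test compares 2 libraries and no conditions, and such intervals cover counting error only. Across the 31 genes the tags of the replicates had a Spearman rank correlation of 0.983 and, on the log2 scale, Pearson's r of 0.988; both are descriptions over genes that share the same libraries.

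**Figure D2:**
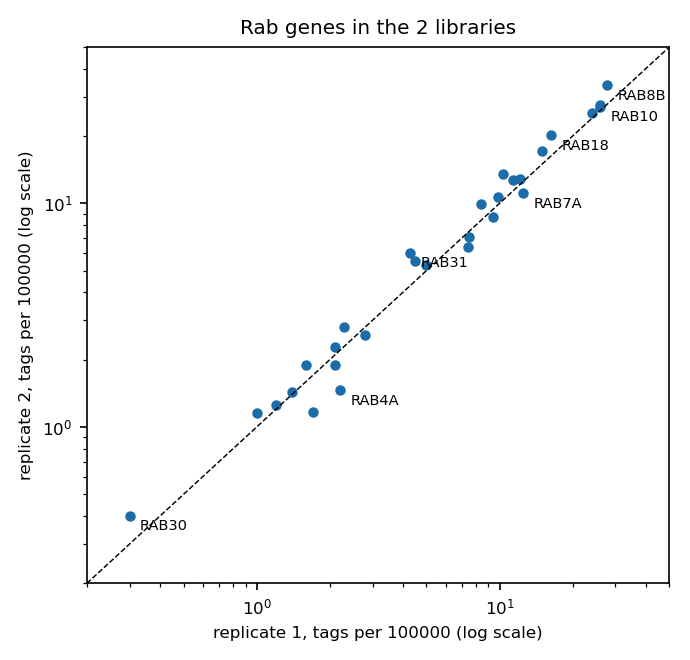
Each point is a Rab gene with its tags in clusters of at least 10 tags, per 100000 tags in all listed clusters, for replicate 1 (x axis) and replicate 2 (y axis). Both axes are on log scales, and the dashed line marks equal values. The points follow the line over the whole range, with RAB8B at 27.8 and 33.7 at the top and RAB30 at 0.3 and 0.401 at the bottom.

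The region labels of the table showed where on the Rab transcripts the tags lay. Clusters labelled 3′UTR alone held 72.1% of Rab tags in replicate 1 and 72.2% in replicate 2, or 72.1% ± 0.0566 (SD, n = 2), beside 47.1% ± 0.358 for all genes. Clusters labelled intron alone held 6.83% and 6.24%, or 6.54% ± 0.41 (SD, n = 2), beside 18.9% ± 0.539. The coding sequence (CDS) held 4.58% of Rab tags and 10.2% of all tags in genes. A further 8.78% of Rab tags lay in clusters that carried both the CDS and the 3′UTR label, and 7.16% in clusters that carried both the 3′UTR and the intron label. Both differences, in 3′UTR and intron share, were larger than the spread between the 2 replicates, and they were not tested further because there is a single group. That spread is between 2 libraries over the same clusters and does not cover the spread between genes. Without RAB5A alone, the Rab shares were 75.1% and 1.55%.

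Most of the Rab genes carried the greater part of their tags in the 3′UTR. Of the 21 Rab genes with more than 100 tags, 16 (76.2%) had more than 50% of their tags in clusters labelled 3′UTR alone, beside 63% of all genes with more than 100 tags. In 14 of the 21 (66.7%) no cluster labelled intron alone reached 10 tags, beside 56.9% of all such genes. RAB33B, RAB31 and RAB8A had 100% of their tags in 3′UTR clusters, RAB8B had 97% and RAB14 had 93.4%. RAB1A stood apart with 138 of its 556 tags, or 24.8%, in the CDS, and RAB11A with 39.7% in clusters with both the CDS and the 3′UTR label. RAB27B and RAB2A had 87.6% and 51.9% of their tags in clusters with both the 3′UTR and the intron label, and all 86 tags of RAB9B carried that double label, so their region depends on the transcript chosen.

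In clusters of at least 10 tags, intron tags came largely from RAB5A. It held 606 of the 777 Rab tags in intron clusters, or 78%, and without it the intron share of the Rab genes was 1.55% and the 3′UTR share 75.1%. Counting every deposited cluster, RAB5A had 74 intron clusters with 849 tags, 210 in replicate 1 and 654 in replicate 2, spread over 29596 nt. The largest of them held 33 tags, whereas the largest 3′UTR cluster of the gene held 310. GENCODE lists 1 further gene on the same strand that overlaps RAB5A, ENSG00000289138, and its part in these tags was not tested. RAB28, linked to cilia and retinal photoreceptors, had a similar layout at a lower level, with 40 of its 42 clusters and 271 of its 292 tags in introns, over 100078 nt and with at most 11 tags in a cluster. RAB10 had 35 intron clusters with 248 tags, of which 5 reached 10 tags, and RAB7A had 19 with 122 tags. With every deposited cluster counted, the intron share of Rab tags was 13.4%, beside 6.36% in clusters of at least 10 tags. Genes other than RAB5A held a larger part of the intron tags on that count.

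**Figure D3:**
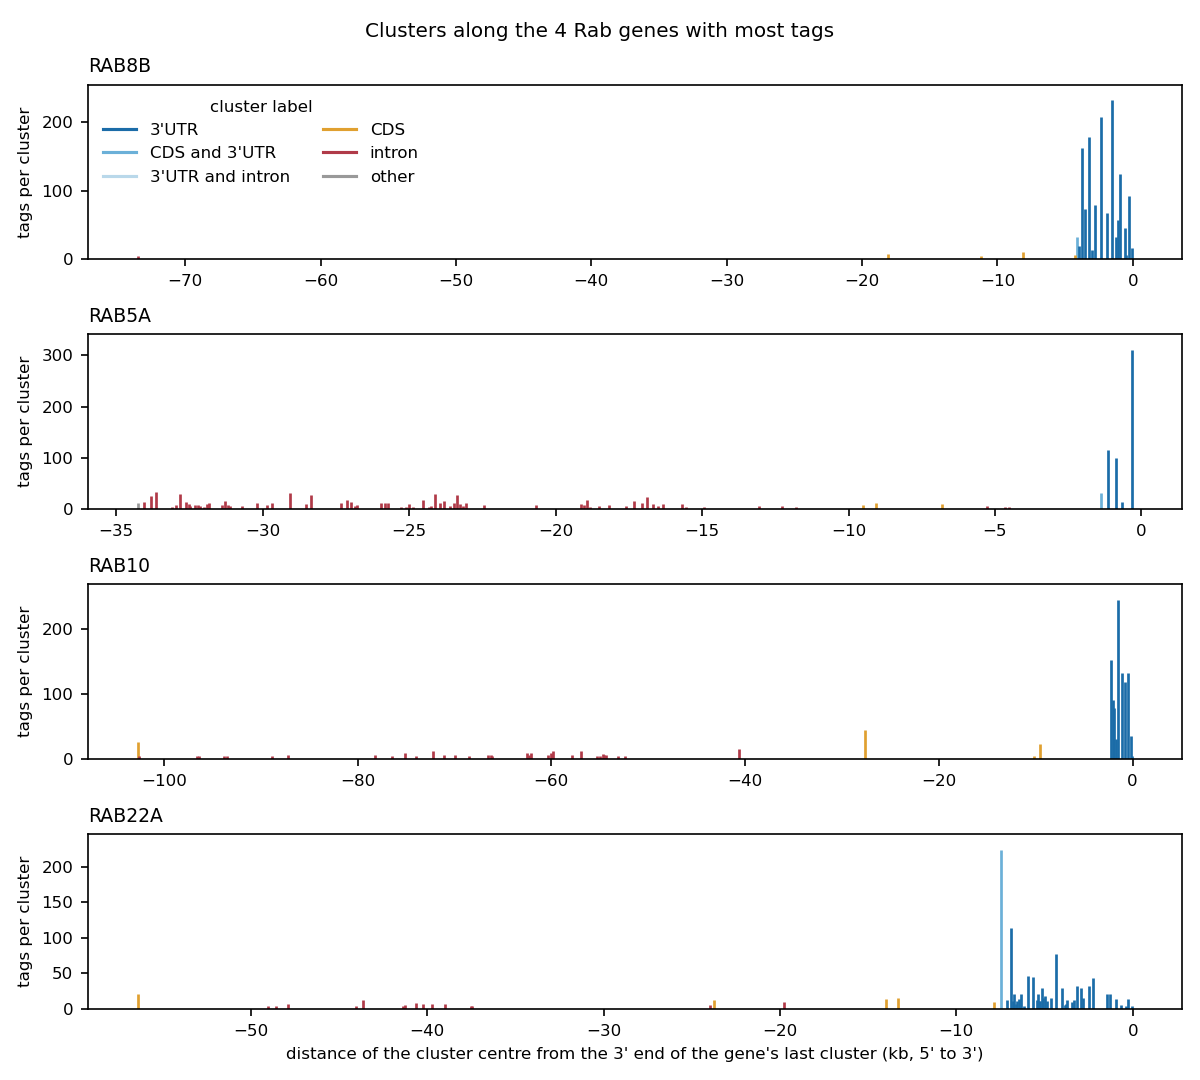
Vertical lines give the tags of every deposited cluster (y axis, own scale in each panel) of RAB8B, RAB5A, RAB10 and RAB22A against the distance of the cluster centre from the 3′ end of the gene's last cluster (x axis, kb), coloured by region label. Tall lines crowd the 3′ end of each gene, and RAB5A shows in addition a long row of low intron clusters that hold at most 33 tags each.

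Deep clusters were few and lay at the 3′ ends. At least 100 tags were found in 28 of the 318 Rab clusters of 10 tags or more (8.81%, beside 5.3% of such clusters in all genes), and these 28 held 40.3% of the Rab tags, beside 47.7% of the tags of all genes in such deep clusters. The sources do not say whether the table counts positions from 0 or from 1. The deepest cluster lay in the 3′UTR of RAB18 on the plus strand (chr10:27867952-27868682, hg18), with 67 tags of replicate 1 and 284 of replicate 2 and a total of 350. RAB5A followed with a 3′UTR cluster of 72 and 238 tags (chr3:20001033-20001662, plus strand), and RAB14 with one of 73 and 238 tags (chr9:122982518-122983118, minus strand). Of the tags in all deposited clusters of its gene, each of these single clusters held a large part, 36.8% in RAB18, 21.2% in RAB5A and 39% in RAB14.

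The next clusters in depth belonged to genes already named. In RAB10 a 3′UTR cluster held 58 and 189 tags (chr2:26212071-26212617, plus strand). RAB22A and RAB11A each had a deep cluster with both the CDS and the 3′UTR label, with 43 and 180 tags (chr20:56368125-56368813, plus strand) and with 40 and 169 tags (chr15:63967212-63967775, plus strand). RAB8B was the one gene with 3 of the 10 deepest clusters, all labelled 3′UTR on the plus strand of chromosome 15. They held 48 and 184 tags (chr15:61345180-61345731), 44 and 164 tags (chr15:61344389-61344974) and 30 and 150 tags (chr15:61343597-61343955). The list of 10 also holds a second 3′UTR cluster of RAB18, with 33 and 152 tags (chr10:27867562-27867934). None of the 10 passed the test of the split between replicates (exact binomial test, adjusted p = 1 for each).

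The length of the annotated 3′UTR gave a second scale for these values. Lengths and base composition were taken from the canonical transcript of each gene in GENCODE mapped to GRCh37, without joining coordinates to hg18, and 7085 genes of the table (91.9%) had a 3′UTR of at least 100 nt. The median 3′UTR of the Rab genes was 2433 nt long, beside 1899 nt over all genes, with 34.3% U beside 32.5%. Counting all clusters with a 3′UTR label, alone or with another, the median Rab gene held 76.4 tags per kb of annotated 3′UTR, beside 19.7 over all genes. Restricted to genes with more than 100 tags, the medians were 132.2 for Rab genes and 125.1 for all. With clusters labelled 3′UTR alone, the medians of that class were 81.8 for Rab genes and 100.8 for all, so the direction of this difference depends on the label.

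In some Rab genes the 3′UTR clusters added up to almost the length of the annotated 3′UTR. The summed length of the 3′UTR clusters was 91% of the annotated 3′UTR in RAB5A, 90.9% in RAB10 and 88.1% in RAB8B. Among genes with more than 100 tags the median share was 45.6% for Rab genes and 44.9% for all genes. The share thus does not set the Rab genes apart. It is a ratio of lengths without joined coordinates, reached 1137.2% over all genes, and is no exact covered fraction. Per kb of annotated 3′UTR RAB5A, RAB10 and RAB8B held 421.6, 417.6 and 346.2 tags, and RAB7A came next with 329.9. RAB6A, RAB1A, RAB5C, RAB14 and RAB18 ranged between 202.5 and 247.3. On this scale RAB5A, RAB10 and RAB8B remained the highest Rab genes, whereas RAB22A, whose annotated 3′UTR is 7804 nt long, held 132.2.

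Long 3′UTRs were not always well covered. RAB21, with the longest annotated 3′UTR of the set at 14613 nt, held 26.3 tags per kb and RAB30, with 9032 nt, held 1.88. These values leave out clusters assigned to no gene that lie beyond the last cluster of each gene, within 10 kb, and that hold 321 tags beside RAB21 and 168 beside RAB30 in clusters of at least 10 tags. RAB5B, with 4471 nt, held 18.3. Over the 31 genes, 3′UTR length and tags in clusters with a 3′UTR label had a Spearman rank correlation of 0.459, beside 0.323 over 7085 genes. U content and tags per kb in clusters labelled 3′UTR alone had a rank correlation of 0.311, beside 0.328 over all genes. These are weak relations across genes of the same libraries and are given as descriptions. RAB8A, RAB35 and RAB5C had the lowest U content, 23.2%, 23.1% and 26.6%, and among them RAB5C still held 232.6 tags per kb while RAB8A held 61.1 and RAB35 held 27.

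**Figure D4:**
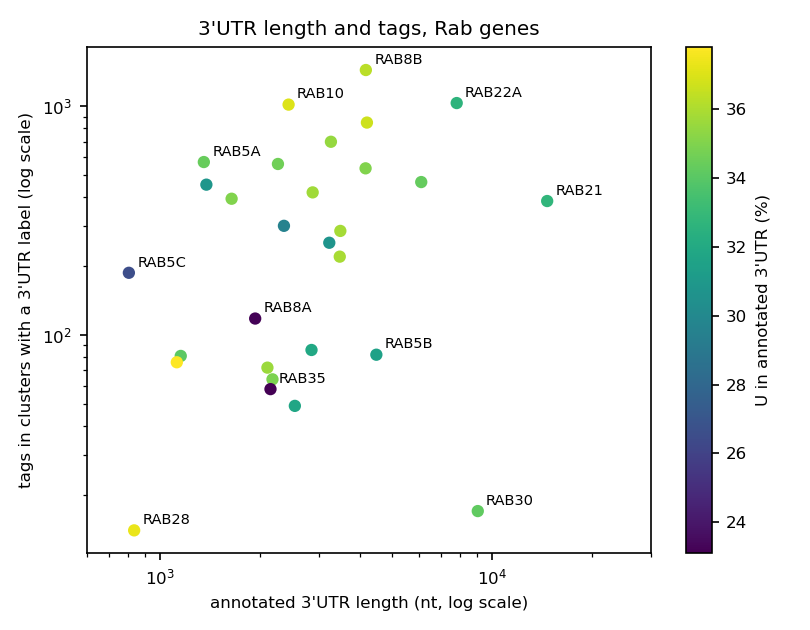
Points are the Rab genes with tags in clusters that carry a 3′UTR label (y axis, log scale) against the length of the annotated 3′UTR (x axis, nt, log scale), coloured by the share of U in the 3′UTR; RAB38 and RAB40A, at 0, are not drawn. RAB8B, RAB22A and RAB10 lie at the top, with 3′UTRs of 4157, 7804 and 2433 nt, while RAB21 and RAB30, with the longest 3′UTRs, lie below them.

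Closely related Rabs differed widely in tags. In each ratio below the gene with more tags is the numerator, so the sign of the ratio in tags follows from that choice. RAB8A and RAB8B, which act in the same pathway, had 28 and 278 tags in replicate 1 and 90 and 1177 in replicate 2. The log2 ratio of RAB8B to RAB8A was 3.51 ± 0.281 (SD, n = 2), a 12.3-fold difference in tags. Per kb of annotated 3′UTR the log2 ratio was 2.39 ± 0.28, and per kb of cluster it was 0.807. The summed length of the clusters was 3888 nt in RAB8B and 597 nt in RAB8A. Clusters are built from overlapping tags, so their length itself depends on the number of tags. The ratio per kb of cluster therefore does not show where the difference in tags came from.

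The RAB5 isoforms, which share the fusion of early endosomes, showed the same ordering in both libraries. RAB5A had 260 and 958 tags, RAB5C had 45 and 192, and RAB5B had 16 and 66. The log2 ratio of RAB5A to RAB5B was 3.94 ± 0.115 in tags (SD, n = 2) and 4.55 ± 0.05 per kb of annotated 3′UTR. RAB5C, with the short 3′UTR of 804 nt, came closer to RAB5A on that scale, at a log2 ratio of 0.87 ± 0.04 in place of 2.42 ± 0.15 in tags. RAB5B had the longest 3′UTR of the 3 isoforms and the fewest tags, and RAB5C exceeded it by 3.67 ± 0.02 per kb on the log2 scale.

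Other pairs differed as well. RAB27B exceeded RAB27A by 3.26 ± 0.048 in log2 tags (SD, n = 2) and by 1.99 ± 0.05 per kb of annotated 3′UTR. RAB2A exceeded RAB2B, which had 14 and 50 tags in replicates 1 and 2, by 2.69 ± 0.146 and 2.25 ± 0.16. RAB7A and RAB7L1, which share only the older root of their symbols, differed by 0.691 ± 0.0657 in log2 tags and by 1.42 ± 0.08 per kb of annotated 3′UTR. RAB9A and RAB9B had 23 and 21 tags in replicate 1 and 98 and 66 in replicate 2, with a log2 ratio of 0.351 ± 0.31 in tags and 0.94 ± 0.62 per kb of annotated 3′UTR, means not far above their SD. When every deposited cluster was counted, RAB9B exceeded RAB9A and the log2 ratio was -0.18. The median of the 8 log2 ratios in tags was 2.56. Over the 8 ratios, per kb of cluster, every log2 value lay between 0.209 and 0.807.

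**Figure D5:**
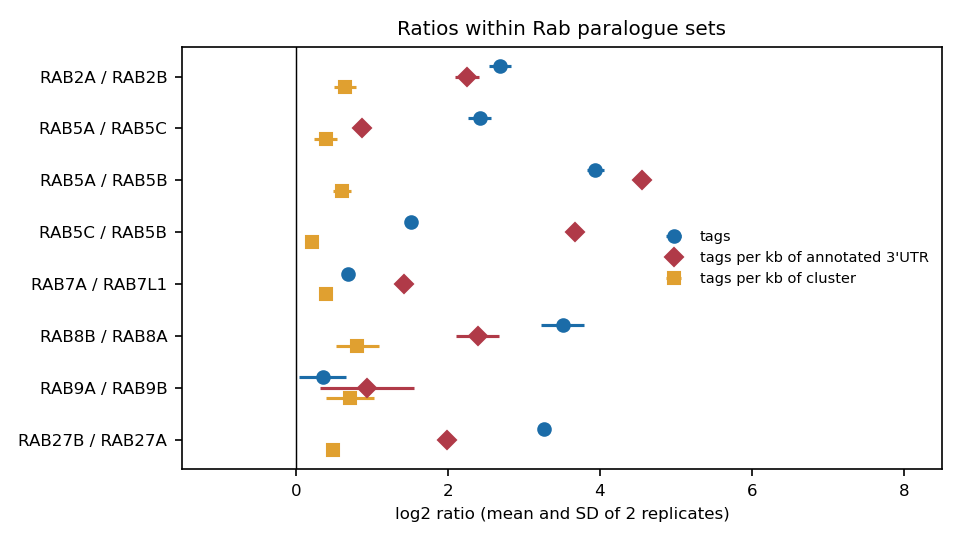
Symbols give the log2 ratio of the first to the second gene of each pair (x axis) as tags, as tags per kb of annotated 3′UTR and as tags per kb of cluster, with bars for the SD of the 2 replicates. The first gene is the one with more tags, so the ratios of tags lie above 0 by that choice; those per kb of cluster lie between 0.209 and 0.807, and the bar for tags of RAB9A over RAB9B nearly reaches 0.

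Genes that load, recycle or read the Rab proteins were also covered. Of 69 such partner genes in the table, 26 (37.7%) held more than 100 tags, beside 67.7% of the Rab genes and 39.9% of all genes. Prenylation and GDP dissociation inhibitor genes had 4 of 5 above 100 tags and a median of 600. They were led by CHML and CHM, the Rab escort proteins that present Rabs to the geranylgeranyl transferase, with 201 and 955 tags and with 128 and 483 tags in replicates 1 and 2, and by GDI2, a GDP dissociation inhibitor, with 128 and 536.

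Among 19 exchange factor genes 6 held more than 100 tags, led by SBF2 (839), RABGEF1 (729) and DENND1B (259). Among 24 GTPase-activating protein genes it was 8, led by EVI5 (890), TBC1D23 (669) and RAB3GAP1 (383). The tags of these classes lay in introns to 44.4% and 34.8%, beside 6.36% for the Rab genes and 18.6% for all genes, whereas the intron share was 5.95% in effectors and 6.94% in prenylation and GDP dissociation inhibitor genes. Intron clusters held 67% of the tags of SBF2 and 46.5% of those of RABGEF1. Effectors had 8 of 21 genes above 100 tags, led by EEA1, the RAB5-binding tether of early endosomes, with 412 and 1500 tags, by GOLGA4 (817), a tether of the trans-Golgi network, and by BICD2 (584), the RAB6-binding dynein adaptor.

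In other small GTPase families, too, the 3′UTR held most tags. The 3′UTR share of tags was 85.3% over 16 ARF, ARL and SAR1 genes and 81.2% over 12 RAS family genes, both above the 72.1% of the Rab genes. More than 100 tags were held by 12 genes of each family, with medians of 408.5 and 418.5 tags beside 253 for the Rab genes. No test of one family against another was made.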

How the data were processed

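HITS-CLIP was done on 2 replicates of doxycycline-treated MDA231-BrM2a cells that carried Flag-RBM47. Bound RNA fragments were A-tailed and copied from an oligo-dT primer with a degenerate barcode. The authors collapsed the reads to unique tags, aligned them to hg18 with Novoalign per the labels, grouped them into clusters, and deposited tag counts per replicate, a total per cluster, a gene and a region label. How reads that fit several places, such as near-identical Rab copies, were treated is not given in the sources used here. The sources used here call the libraries replicates and do not say that they come from separate cultures. The exact binomial p-values set the split of tags between these libraries against counting error only. A difference between the libraries may be technical.

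From the deposited counts, tags were summed per gene and region with pandas 2.3.3, over clusters of at least 10 tags. The split between replicates was tested with two-sided exact binomial tests in SciPy 1.17.1, adjusted by Benjamini-Hochberg over all genes or clusters and tested on simulated data. Named genes were all Rab genes with more than 100 tags, members of paralogue sets, the 3 partner genes per list with most tags and the 10 deepest Rab clusters. Members and lists were chosen with earlier results of these data known, and 1 marker and 1 gene family among the lists are not reported here. All Rab clusters lay on the annotated strand of their gene, and 12 of the 31 genes overlap another gene on that strand in GENCODE. The alternatives covered the minimum number of tags, the total, the labels, each replicate left out, the test and the scale of the ratios. No genome of build hg18 was used here, so no sequence is shown.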

Additional observations from a re-analysis of the deposited data

How the results depend on the processing

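The counts of 21 Rab genes above 100 tags and 29 with a cluster of 10 tags depend on depth: with either replicate left out they ranged from 8 to 18 and from 20 to 29. The low ends belong to replicate 1 alone, where the same minimum is stricter by construction. Over the same settings the median ranged from 24 to 192 tags, and the Rab tags per 1000 from 4.27 to 4.28. The share of tags in 3′UTR clusters was between 73.9% and 82.1%, that in intron clusters between 0.96% and 5.04%, and the median log2 ratio within paralogue sets, 2.56 in the main setting, was 2.48 over 8 ratios without replicate 1 and 2.32 over the 3 ratios that had a value without replicate 2. With all deposited clusters the median was 297 tags, the Rab tags per 1000 were 4.06, the 3′UTR share 64.2%, the intron share 13.4% and the median log2 ratio 2.59. With a minimum of 30 tags these were 161, 4.23, 79.5%, 1.08% and 1.59, the last over 4 of the 8 ratios. Clusters whose replicate tags add up to the total gave 214, 4.39, 67.7% and 7.56%, and the summed replicate tags gave a 3′UTR share of 71.9%. Counting every label that includes the region gave 88.3% and 13.5%. The median log2 ratio was 0.54 per kb of cluster and 2.52 with 1 tag added. Chosen after seeing the data, leaving out RAB5A gave 75.1% and 1.55%, and adding unassigned clusters within 10 kb downstream gave a median of 285 and 4.44 per 1000. Of 98 alternatives in all, 63 moved a value past its limit, 34 did not and 1 reversed it, the log2 ratio of RAB9A to RAB9B, which was -0.18 with all deposited clusters. The cause was not tested. For values other than counts, the limit was the SD between replicates in the main setting, such as 0.0566 for the 3′UTR share. Small shifts therefore passed it, whereas counts of genes above a minimum of tags had a wider limit, so the tally depends on the limits chosen. No Rab gene or cluster passed the split test under any of the alternatives, while all genes called numbered 6 with a beta-binomial test, 24 with clusters of at least 10 tags, 98 with clusters whose tags add up, 131 as reported and 273 against the replicate 1 share of the deepest clusters. No paired analysis was possible because both replicates belong to the same group.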

Other observations

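Beyond the last cluster assigned to a Rab gene, on the same strand and within 10 kb, the table lists further clusters that carry no gene and the label downstream, in 1 case beside RAB7L1 together with the label upstream. There were 109 such clusters beside 11 Rab genes, with 1138 tags, 272 of them from replicate 1 and 897 from replicate 2. RAB21 had 34 of them with 96 and 367 tags, reaching 8912 nt beyond its last assigned cluster. Its 3′UTR clusters span 1349 nt, whereas the annotated 3′UTR is 14613 nt long. RAB30 had 29 with 74 and 209 tags, and its annotated 3′UTR is 9032 nt long. RAB23 had 13 with 40 and 145 tags.

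Adding those of at least 10 tags would bring RAB21 from 395 to 716 tags, RAB23 from 233 to 386 and RAB30 from 17 to 185, which would place RAB30 above 100 tags. Whether these clusters belong to the Rab transcripts was not tested.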
